A study of Mus musculus with 4 samples.

Results

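The messenger RNAs of 10 genes of the canonical Wnt pathway were followed in leukemic granulocyte-macrophage progenitors (L-GMPs) of mice. They were taken from a list of symbols by pathway role, with no threshold on a measured value, but with earlier results of these data known. All 10 were found among the 45232 gene identifiers counted. The list holds the co-receptor gene Lrp6, the destruction complex genes Axin1, Axin2, Apc and Gsk3b, the beta-catenin gene Ctnnb1, and the 4 genes of the TCF/LEF factors, Tcf7, Lef1, Tcf7l1 and Tcf7l2. Of these, 8 had enough reads for the test, while Lef1 and Axin2 did not pass the filter on low counts.

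The cells came from mice that were secondary recipients of acute myeloid leukemia driven by the MLL-AF9 fusion oncoprotein, which all 4 mice shared. The groups are labelled Scr and miR-99 KD, with 2 mice and 2 libraries in each, and the labels spell out neither name. Cells were sorted at the time of death as positive for GFP and tdTomato (given as tdTom) and for the surface markers c-Kit, Sca-1, CD16/32 and CD34. The sources used here do not give strain, age or sex of the mice, nor whether the 4 received cells of the same primary leukemia.

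In the canonical pathway a Wnt ligand binds a Frizzled receptor and the co-receptor LRP5 or LRP6. Without ligand, AXIN and APC hold beta-catenin for phosphorylation by CK1 and GSK3, and it is then ubiquitinated and degraded; with ligand, beta-catenin enters the nucleus and binds TCF/LEF factors at target genes. Much of this control acts on the beta-catenin protein, which RNA counts do not measure. Beta-catenin signalling is known to be needed for leukemic stem cells of MLL-AF9 leukemia in mice. Tcf7 and Lef1 are best known as factors of T cell development, and Axin2 is a widely used direct target that feeds back on the pathway.

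The treatment concerns the miR-99 family, whose mature sequences are printed because the seed decides which transcripts pair with them. Seeds, bases 2 to 8, are in capitals, sequences are from RefSeq on GRCm38.p6, and all 3 share one seed.
mmu-miR-99a-5p: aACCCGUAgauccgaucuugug
mmu-miR-99b-5p: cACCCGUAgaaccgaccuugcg
mmu-miR-100-5p: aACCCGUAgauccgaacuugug

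No match to this seed was found in the Wnt genes listed. The letters searched were TACGGGT, the match to bases 2 to 8, and ACGGGTA, the match to bases 2 to 7 followed by A, on the transcript strand. These motifs overlap where both occur together. The longest annotated 3' UTRs, from 750 bases (Axin1) to 5515 bases (Gsk3b), held 0 matches in the 10 genes, and 0 of their annotated transcripts held one anywhere. Of 12387 genes that passed the expression filter and have an annotated 3' UTR, 327 (2.64%) held a match.

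The sequences upstream of 3 annotated starts are shown for Tcf7l2, the gene whose values differed most between the groups, and for Gsk3b, whose window held a TCF core. Each is 200 bases that end just before the annotated start, from RefSeq on GRCm38.p6, plus strand. Tcf7l2 has a pair of such starts, and the reads of both are summed in its count. The first lies at chr19:55741610-55741809 and the second, inside the gene, at chr19:55895121-55895320; each CG dinucleotide is in capitals. The Gsk3b sequence lies at chr16:38088801-38089000, with the TCF core in capitals.
Tcf7l2, first start: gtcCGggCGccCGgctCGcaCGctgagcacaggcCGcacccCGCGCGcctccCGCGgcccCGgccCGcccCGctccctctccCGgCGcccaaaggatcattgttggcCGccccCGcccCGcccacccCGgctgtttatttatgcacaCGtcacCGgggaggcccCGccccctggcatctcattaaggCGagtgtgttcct
Tcf7l2, internal start: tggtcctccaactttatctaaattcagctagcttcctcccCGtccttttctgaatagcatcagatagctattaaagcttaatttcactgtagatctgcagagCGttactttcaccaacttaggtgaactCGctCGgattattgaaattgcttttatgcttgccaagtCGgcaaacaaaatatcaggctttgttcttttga
Gsk3b: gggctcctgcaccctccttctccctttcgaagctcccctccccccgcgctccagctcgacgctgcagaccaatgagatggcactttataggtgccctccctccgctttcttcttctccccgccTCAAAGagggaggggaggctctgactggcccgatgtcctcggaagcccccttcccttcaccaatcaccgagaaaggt

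The first Tcf7l2 start had 24 CG dinucleotides in 200 bases and 73.5% G and C, against 5 and 39.5% at the internal start. Over 32851 promoter windows cut in the same way, the median was 5 and 89.4% held at least 1. TCF/LEF motifs were then searched in windows of 300 bases (250 before and 50 after the start), as CTTTGAT or CTTTGAA on either strand. Of 13 windows of 7 of the genes (Ctnnb1, Tcf7, Lef1, Tcf7l1, Tcf7l2, Axin2 and Gsk3b), 0 held such a match, against 8.65% of all windows. The shorter core CTTTGA, which lies within both, was in 2 of the 13 windows, against 16.0% of all. These were the Gsk3b window, with the core 77 bases before the start, and a window of an internal Lef1 start.

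Gene counts summed to between 38458519 and 42674407 per library. Levels are given as CPM, counts scaled to a library total of 1000000, and n = 2 in each group throughout. Scr 1 stood apart: the summed level of olfactory receptor genes, which are not known for expression in blood, was 51.9 CPM there and 5.52, 4.78 and 15.0 CPM in Scr 2, miR-99 KD 1 and miR-99 KD 2. The gate genes Kit, Cd34 and Fcgr3 each had at least 9882 counts in every library, but Ly6a, the gene of Sca-1, had 4 to 8 although the labels give Sca-1 as positive. Kit had 453 and 424 CPM in the Scr libraries against 298 and 232 CPM in those of miR-99 KD, while Cd34 and Fcgr3 overlapped in CPM. After scaling by TMM, a normalization across libraries, both miR-99 KD libraries lay above both Scr libraries in Cd34 and Fcgr3. In Kit they lay below both. The shares over all genes tested were 18.9% above and 25.3% below. The level of miR-99 itself was not measured, since libraries made from longer RNA do not capture mature microRNAs.

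Among the 10 genes, Tcf7l2 was the one whose groups stood apart, with 3.72-fold more in Scr, while beta-catenin, the destruction complex and Lrp6 varied as much within a group as between the groups. No gene passed the threshold of an adjusted p of 0.05 in edgeR's quasi-likelihood test. It called 0 of 15591 genes tested (0%), and 0 of the 8 Wnt genes tested. At an unadjusted p under 0.05 it had 414 genes higher (2.66%) and 816 lower (5.23%) in miR-99 KD, among them 0 and 1 of the 8. DESeq2 called 261 genes, of which 148 were lower (0.949% of those tested) and 1 of these is among the 8; limma-voom called 0.

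**Figure D1:**
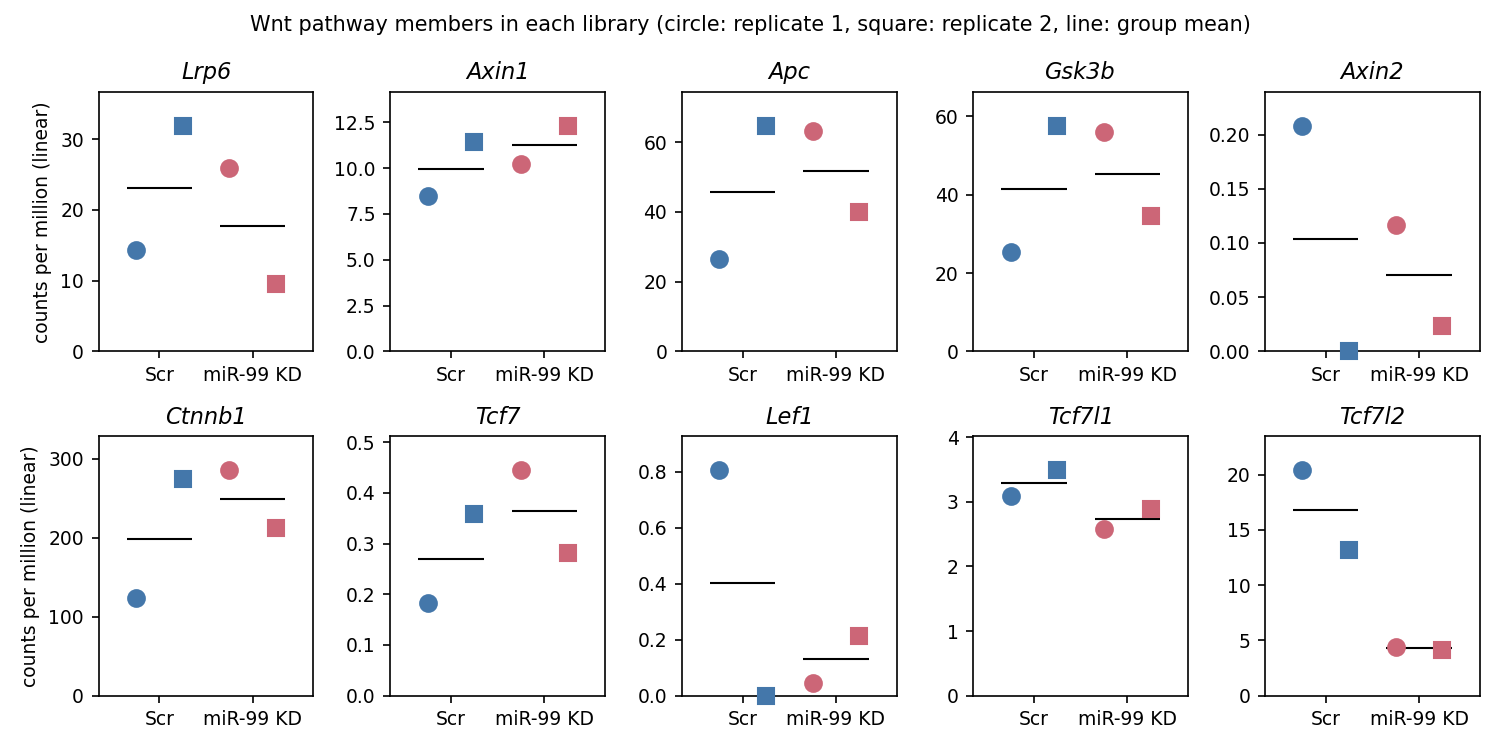
CPM (linear axes from 0, scaled for each gene) of the 10 Wnt pathway genes in each library; circles are replicate 1, squares replicate 2, blue is Scr, red is miR-99 KD and lines are group means. Tcf7l2 is 13.2 and 20.4 CPM in the Scr mice, and 4.16 and 4.43 CPM in the miR-99 KD mice, while Ctnnb1, Apc, Gsk3b and Lrp6 have overlapping groups.

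Lrp6 encodes the co-receptor that, once phosphorylated, draws AXIN to the membrane. It lies at chr6:134446476-134566965 on GRCm38. Lrp6 had 14.4 and 31.9 CPM in the Scr libraries against 25.9 and 9.59 CPM in those of miR-99 KD. The highest and the lowest library differed 2.21-fold within Scr and 2.70-fold within miR-99 KD, and the groups overlapped. Its log2 fold change of miR-99 KD over Scr was −0.35 ± 0.67 (SE), with a 95% interval of −2.15 to 1.45 and an edgeR adjusted p of 0.886. The value was 0.48 without Scr 2 and 0.24 without miR-99 KD 2, so its sign rests on single libraries.

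The groups overlapped in the 3 tested genes of the destruction complex. Gsk3b, the kinase gene (chr16:38089001-38246084), had 25.3 and 57.6 CPM in the 2 Scr samples, with 56.1 and 34.5 CPM in the 2 miR-99 KD samples. Apc, which encodes the large scaffold that binds beta-catenin, had 26.5 and 64.7 CPM in the Scr mice, and 63.3 and 40.0 CPM in the miR-99 KD mice. In both genes Scr 1 was lowest, miR-99 KD 2 came next, and Scr 2 and miR-99 KD 1 were close together at the top.

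Apc and Gsk3b kept nearly the same ratio to each other in all libraries. The ratio of their levels per kilobase of exon was 0.640 and 0.685 in the Scr libraries against 0.688 and 0.706 in those of miR-99 KD. Fitted log2 fold changes were 0.21 ± 0.55 (95% interval −1.27 to 1.69) for Apc and 0.16 ± 0.53 (−1.27 to 1.58) for Gsk3b. Their edgeR adjusted p were 0.919 and 0.936. Without Scr 1 the values were −0.28 and −0.30, and without miR-99 KD 1 they were −0.13 and −0.20.

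Axin1 encodes the scaffold that brings APC, GSK3 and beta-catenin together, and its levels did not follow those of Apc and Gsk3b. It lies at chr17:26138688-26195811. It had 8.48 and 11.4 CPM in the 2 Scr samples, with 10.2 and 12.3 CPM in the 2 miR-99 KD samples. All 4 libraries lay within this narrow range, and the groups overlapped. The ratio of Axin1 to Gsk3b per kilobase was 0.861, 0.508, 0.466 and 0.913 in Scr 1, Scr 2, miR-99 KD 1 and miR-99 KD 2. The log2 fold change of Axin1 was 0.22 ± 0.29, with a 95% interval of −0.56 to 1.0 and an edgeR adjusted p of 0.839.

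Axin2, the inducible relative of Axin1 and a feedback target of the pathway, was close to absent. It lies at chr11:108920349-108950783. The Scr libraries held 8 and 0 counts, and the miR-99 KD libraries 5 and 1. The 0 counts in Scr 2 allow up to 0.0716 CPM (3 counts), and the 8 in Scr 1 are 0.208 CPM, with an exact 95% Poisson interval of 0.0898 to 0.410 that covers counting error only. No difference between the groups was detectable at this depth.

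Ctnnb1, which encodes beta-catenin, was the most highly expressed of the 10 genes. It lies at chr9:120929216-120960507, and 14.6% of its exon bases overlap exons of Ulk4 on the opposite strand. It had 124 and 274 CPM in the Scr mice, and 286 and 212 CPM in the miR-99 KD mice. Scr 1 was lowest, and Scr 2 lay between the miR-99 KD libraries. The log2 fold change was 0.35 ± 0.47, with a 95% interval of −0.92 to 1.62 and an edgeR adjusted p of 0.840. Without Scr 1 it was −0.09.

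Levels per kilobase of exon allow a comparison between genes, as the mean over the 4 libraries in CPM per kilobase. Ctnnb1 stood at 43.1, far above Gsk3b at 4.41, Apc at 3.02 and Axin1 at 2.76. Gsk3b spanned 2.57 to 5.86 over libraries and Axin1 2.21 to 3.21, so these last 3 did not separate beyond their spread. Lrp6 at 1.5 and Tcf7l2 at 1.20 followed, with overlapping ranges. Tcf7l1 had 0.768. It lay above Tcf7l2 in both miR-99 KD libraries (0.657 and 0.737 against 0.505 and 0.474) and below it in both Scr libraries. The order in miR-99 KD turns with the gene length used, as given below for the shares. Lower than all of these genes were Tcf7 at 0.121, Lef1 at 0.0303 and Axin2 at 0.0158.

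In 5 of the 8 genes tested (Ctnnb1, Tcf7, Axin1, Apc and Gsk3b) Scr 1 was the library with the lowest CPM. Over all genes tested Scr 1 was lowest in 18.1%. It was highest in 1 of the 8, Tcf7l2, and in 39.6% of all genes tested. Scr 1 is also the library with the most olfactory receptor reads, and the part of that in these levels was not tested.

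Tcf7l2, the TCF/LEF factor gene with the most reads, had 784 and 552 counts in the Scr libraries against 189 and 177 counts in those of miR-99 KD. Its protein is often called TCF4 and is not the product of the gene Tcf4, which encodes an unrelated basic helix-loop-helix factor. The gene lies at chr19:55741820-55933654. In CPM these counts are 20.4 and 13.2 in the 2 Scr samples, with 4.43 and 4.16 in the 2 miR-99 KD samples, so both miR-99 KD libraries lay below both Scr libraries. The group means were 16.8 ± 5.09 CPM (SD, n = 2) and 4.30 ± 0.189 CPM.

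The log2 fold change of Tcf7l2 was −1.90 ± 0.28, with a 95% interval of −2.64 to −1.16. Its edgeR adjusted p of 0.398 did not pass the threshold. By unadjusted p it ranked 62 among the 15591 genes. The DESeq2 adjusted p was 6.93e-05, and 0.198 without Scr 1. Over the alternatives tried the log2 fold change ran from −2.07 to −1.56, negative in each of 12 fits, and the adjusted p from 6.93e-05 to 0.962. Leaving out Scr 1 gave −1.56 with an edgeR adjusted p of 0.0653. Both miR-99 KD libraries lay below both Scr libraries in 25.3% of all genes tested and above both in 18.9%, against 1 and 0 of the 8 Wnt genes after scaling by TMM, a normalization across libraries.

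In sorted bulk cells, fewer cells with a transcript and less of it per cell cannot be told apart. The sums of several marker lists did not overlap between the groups either. The summed level of the 12 granulocyte maturation genes was 6384 and 4301 CPM in the Scr mice, and 11120 and 24501 CPM in the miR-99 KD mice, with no gene of the list at 0. Of these 12, 9 had both miR-99 KD libraries above both Scr libraries, beside 18.9% of all genes tested, while Ctsg, Cebpe and Mmp8 overlapped. The 10 monocyte and macrophage genes summed to 2094 and 1973 CPM in the Scr libraries against 2339 and 3666 CPM in those of miR-99 KD. Of the 9 tested, 5 had both miR-99 KD libraries above both Scr libraries, 2 had both below and 2 overlapped. The 7 plasmacytoid dendritic cell genes summed to 255 and 181 CPM in the Scr mice, and 335 and 502 CPM in the miR-99 KD mice. Most of this was Irf8, with 217 and 154 CPM in the Scr mice, and 284 and 446 CPM in the miR-99 KD mice. Of the 5 tested, 2 had both miR-99 KD libraries above both Scr libraries, 1 had both below and 2 overlapped. Over all genes tested the shares above and below were 18.9% and 25.3%.

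The sum of the 11 stroma and endothelium genes went the other way, with 266 and 257 CPM in the Scr libraries against 240 and 159 CPM in those of miR-99 KD. Nearly all of this came from Pdgfrb and Pecam1. Pdgfrb, a growth factor receptor gene of pericytes and fibroblasts, had 133 and 142 CPM in the Scr mice, and 88.6 and 19.9 CPM in the miR-99 KD mice. Pecam1, an adhesion gene that leukocytes also express, had 123 and 111 CPM in the Scr libraries against 149 and 135 CPM in those of miR-99 KD. The endothelial genes Cdh5 and Kdr had at most 2 and 11 counts in any library. Of the 8 genes of this list tested, 3 had both miR-99 KD libraries below both Scr libraries, 1 had both above and 4 overlapped. The shares over all genes tested were 25.3% below and 18.9% above. The part of any of these lists in the Tcf7l2 values was not tested.

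**Figure D2:**
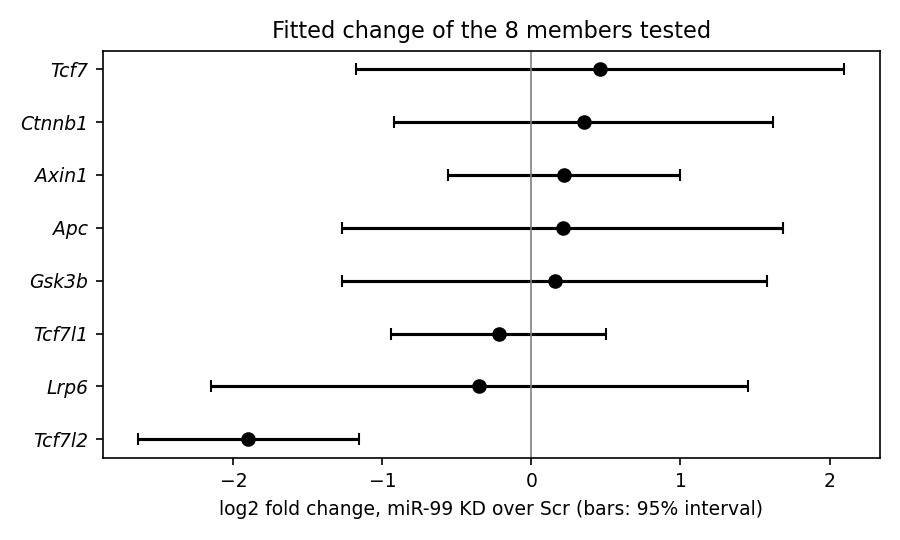
Fitted log2 fold change of miR-99 KD over Scr (x axis) for the 8 Wnt pathway genes that passed the expression filter; points are edgeR estimates and bars their 95% intervals. The interval of Tcf7l2 runs from −2.64 to −1.16, and the other 7 intervals include 0.

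Tcf7l1, which encodes a factor known mainly as a repressor of Wnt targets, lay within a narrow range. It had 3.09 and 3.49 CPM in the 2 Scr samples, with 2.58 and 2.89 CPM in the 2 miR-99 KD samples. These CPM values do not overlap between the groups, but they do after TMM scaling. The log2 fold change was −0.22 ± 0.27, with a 95% interval of −0.94 to 0.50 and an edgeR adjusted p of 0.823. The gene lies at chr6:72626378-72789254.

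Tcf7, which encodes TCF1, had 7 and 15 counts in the Scr mice, and 19 and 12 counts in the miR-99 KD mice, at chr11:52252371-52283014. These are 0.182, 0.358, 0.445 and 0.282 CPM, with overlapping groups. The log2 fold change was 0.46 ± 0.61 (95% interval −1.18 to 2.10), with an edgeR adjusted p of 0.838. So few counts leave an interval that covers changes in either direction, and the value was 0.07 without Scr 1 and 1.16 without Scr 2.

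Lef1, at chr3:131110471-131224356, received 31 counts from Scr 1 and 0 from Scr 2, with 2 and 9 from miR-99 KD 1 and 2. The libraries with more Lef1 counts are the same as those with more olfactory receptor reads. Per kilobase of exon Lef1 had 0.0917, 0, 0.00533 and 0.0241 CPM, and the 1168 olfactory receptor genes together had 0.0148, 0.00157, 0.00136 and 0.00425 CPM, in that order of libraries. Except in Scr 2, where it had no count, Lef1 lay above that level in every library, and the part of such reads in its counts was not tested. Exons of the antisense gene Gm43352 cover 13.7% of the Lef1 exon bases, and without a stated strand setting their reads cannot be told apart.

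Genes of T cells, in which Tcf7 and Lef1 are abundant, had uneven levels. The T cell receptor complex genes Cd3d, Cd3e and Cd3g had at most 9, 4 and 2 counts in any library, and Cd8a at most 2. Of the 18 T and NK cell genes listed, 3 had no more than 3 counts in any library. The whole list summed to 183 and 134 CPM in the Scr libraries against 172 and 170 CPM in those of miR-99 KD, mostly from Nkg7, with 4694 to 6784 counts. Others of the list were also read. Bcl11b had 281 and 563 counts in the Scr libraries against 672 and 163 counts in those of miR-99 KD. Cd5 had 55 to 103 counts and Lat 10 to 132. Lck had 51 and 64 counts in the Scr libraries against 25 and 26 counts in those of miR-99 KD. For Klrb1c these were 50 and 60 against 11 and 10. Of the 8 tested, Lat, Lck and Klrb1c had both miR-99 KD libraries below both Scr libraries after TMM scaling. Nkg7 had both above, and 4 overlapped. The part of such cells in the Tcf7 and Lef1 counts was not tested. Of 12 B cell genes, 2 had no more than 3 counts in any library. The list summed to 109 and 92.5 CPM in the 2 Scr samples, with 76.0 and 101 CPM in the 2 miR-99 KD samples. Most of each sum was Cd79b, with 59.9 to 88.2 CPM. Rag2 had 28.8 and 30.3 CPM in the Scr libraries against 11.1 and 10.6 CPM in those of miR-99 KD. Its log2 fold change was −1.40 ± 0.21 (edgeR adjusted p 0.398). Of the 6 tested, Rag2, Cd79a and Igll1 had both miR-99 KD libraries below both Scr libraries, 0 had both above and 3 overlapped. Beside the T and NK cell and the B cell lists, the shares over all genes tested were 25.3% below and 18.9% above.

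Tcf7l2 made up more of the TCF/LEF transcripts in both Scr libraries than in either miR-99 KD library. Of the summed level of the 4 genes per kilobase of exon, Tcf7l2 held 71.0% and 59.4% in the Scr mice, and 37.8% and 35.3% in the miR-99 KD mice. Tcf7l1 held 24.1% and 35.2% in the Scr libraries against 49.1% and 54.9% in those of miR-99 KD, so it was the leading factor gene there and Tcf7l2 in Scr. The sum of all 4 genes was 3.27 and 2.53 CPM per kilobase in Scr and 1.34 in each miR-99 KD library. Without Tcf7l2, the other 3 summed to 0.950 and 1.03 in the 2 Scr samples, with 0.832 and 0.869 in the 2 miR-99 KD samples.

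The shares depend on gene length as well as on counts. With the longest transcript as the length, the Tcf7l2 share was 77.0% in Scr and 51.7% in miR-99 KD, and with coding length 78.4% and 53.8%, so the order of Tcf7l2 and Tcf7l1 in miR-99 KD turns with this choice. An exact permutation test of 2 libraries against 2 cannot give a p below 0.33, so no test was made on the shares.

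**Figure D3:**
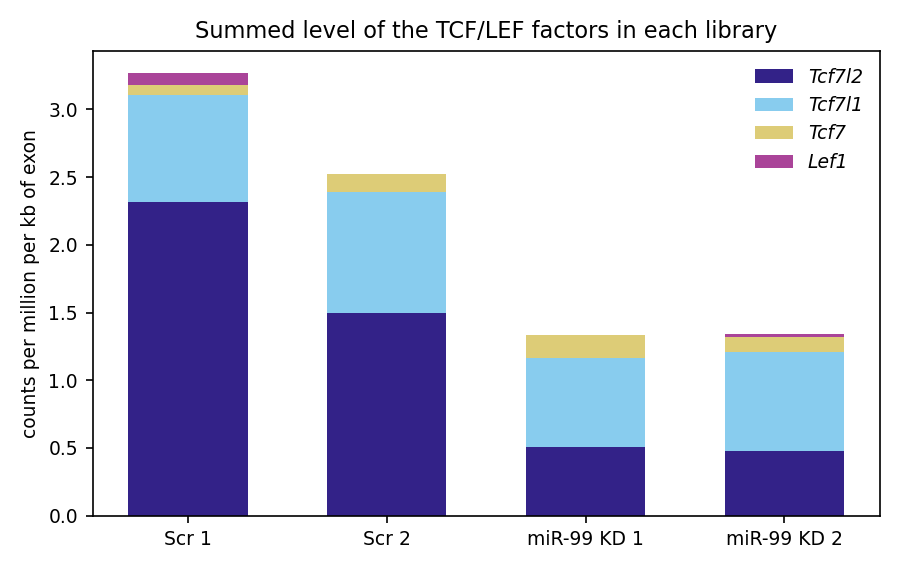
Summed level of the 4 TCF/LEF genes in each library, in CPM per kilobase of exon (linear axis from 0), with 1 bar per library stacked by gene. The stack reaches 3.27 and 2.53 for the Scr libraries and 1.34 for each miR-99 KD library, and the Tcf7l2 segment accounts for most of that difference.

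The rest of the pathway was read from 11 further lists with 147 symbols, of which 146 were found and 87 were tested. None passed the threshold over all genes. At an unadjusted p under 0.05 in edgeR, 0 were higher and 6 lower in miR-99 KD (Wnt5b, Fzd3, Rspo1, Tle2, Fosl1 and Jun), beside 2.66% higher and 5.23% lower over all genes tested. The median log2 fold change over the 87 was −0.04, against −0.01 over all genes tested. Both miR-99 KD libraries lay above both Scr libraries in 4 of the 87 and below both in 19, beside 18.9% and 25.3% over all genes tested.

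Ligand genes were scarce. Of 19 Wnt genes, 4 were tested, and the others had too few reads. All 4 had a negative log2 fold change (median −0.78), beside 7946 of all 15591 genes tested. Wnt5b, a ligand of mostly beta-catenin-independent signalling, had 20 and 26 counts in the Scr mice, and 3 and 4 counts in the miR-99 KD mice. Only the Scr counts of Wnt5b reached the filter's minimum of 10, so the filter favoured a lower value in miR-99 KD. Both Scr counts of Wnt9b (13 and 23) and of Wnt10b also reached it, while miR-99 KD 2 fell short with 8 and 7. The shared sign of the 4 is therefore no result about the ligands. The log2 fold change of Wnt5b was −2.71 ± 0.52 (edgeR adjusted p 0.466). Wnt10b had 15 and 18 counts in the Scr mice, and 12 and 7 counts in the miR-99 KD mice, with a log2 fold change of −0.82 ± 0.52.

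Secretion and reception had uneven levels. Wls, which carries Wnt proteins to the cell surface, was abundant at 229 and 176 CPM in the Scr libraries against 202 and 160 CPM in those of miR-99 KD. Porcn, the acyltransferase that lipidates Wnt proteins, had 2 to 10 counts and was not tested. Of 14 further receptor genes, 6 were tested, with a median log2 fold change of −0.07 and 1 at an unadjusted p under 0.05.

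Fzd3, a Frizzled receptor gene, had 74 and 67 counts in the 2 Scr samples, with 16 and 6 counts in the 2 miR-99 KD samples. It was named for its small p, and its groups did not overlap. Both miR-99 KD libraries lay below both Scr libraries in 25.3% of all genes tested. Both Scr counts of Fzd3 reached the filter's minimum count, while miR-99 KD 2 fell short of it with 6. As for Wnt5b, the filter therefore favoured a lower value in miR-99 KD. The log2 fold change of Fzd3 was −2.69 ± 0.56 (edgeR adjusted p 0.466, DESeq2 adjusted p 0.0184). The DESeq2 call was lost without Scr 1 (adjusted p 1), and the log2 fold change was −3.51 without miR-99 KD 1. Fzd4 had 1.40 and 1.62 CPM in the Scr mice, and 0.937 and 1.01 CPM in the miR-99 KD mice, with −0.59 ± 0.32. Fzd7, the receptor gene with the highest level per kilobase, had 1.53 and 4.87 CPM in the Scr libraries against 5.39 and 1.95 CPM in those of miR-99 KD, with overlapping groups.

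R-spondins bind LGR receptors and keep the ubiquitin ligases RNF43 and ZNRF3 from removing Frizzled. Of the 9 genes of this axis, 5 were tested, 4 of them with a negative log2 fold change (median −0.58). Over all genes tested, 7946 of 15591 were negative. Rspo1 had 8.11 and 10.6 CPM in the 2 Scr samples, with 4.64 and 2.23 CPM in the 2 miR-99 KD samples (−1.39 ± 0.47, edgeR adjusted p 0.616). Lgr4, a receptor gene of R-spondins, had 3.41 and 3.58 CPM in the Scr mice, and 2.37 and 1.79 CPM in the miR-99 KD mice (−0.70 ± 0.30). Both miR-99 KD libraries were below both Scr libraries in Rspo1 and Lgr4, as in 25.3% of all genes tested. Both genes were named for the smallest p of their list, which favoured groups that stand apart. Lgr6, a further receptor gene of R-spondins, had 10.6 and 21.3 CPM in the Scr libraries against 26.2 and 16.6 CPM in those of miR-99 KD. The groups of Lgr6 overlapped, and its log2 fold change was positive. Rnf43 had 60.1 and 49.4 CPM in the Scr libraries against 57.4 and 38.0 CPM in those of miR-99 KD, with overlapping groups.

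Inhibitors outside the cell and Dishevelled genes showed no gene at an unadjusted p under 0.05. Of 15 inhibitors listed, 14 were found and 3 tested (median −0.23). Kremen1, a receptor for DKK proteins, had 3.22 and 8.72 CPM in the 2 Scr samples, with 10.6 and 3.06 CPM in the 2 miR-99 KD samples. Notum, a secreted enzyme that strips the lipid from Wnt proteins, had 7 and 22 counts in the Scr mice, and 11 and 5 counts in the miR-99 KD mice. Exons of the antisense gene Notumos overlap 29.4% of the Notum exon bases, and exons of Acadvl on the opposite strand 18.3% of those of Dvl2. Of 8 Dishevelled genes and binders, 5 were tested (median 0.04), and Dvl2, the highest, had 25 and 28.0 CPM in the Scr mice, and 33.0 and 20.8 CPM in the miR-99 KD mice. Nkd1 and Nkd2, whose products bind Dishevelled, had 15 to 21 and 6 to 24 counts.

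All 23 partners of the destruction complex were tested, with a median log2 fold change of 0.03 and a range of −0.45 to 0.44. The highest per kilobase of exon was Skp1a, a subunit of the ubiquitin ligase that marks beta-catenin, with 358 and 300 CPM in the Scr libraries against 323 and 421 CPM in those of miR-99 KD. Amer1, which encodes an APC-binding protein of the membrane, had 20.2 and 16.4 CPM in the 2 Scr samples, with 15.3 and 10.4 CPM in the 2 miR-99 KD samples (−0.45 ± 0.28).

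The nuclear partners were expressed in both groups. Of 10 coactivators, all tested, the median was −0.13. Smarca4, a chromatin remodelling ATPase, had 221 and 243 CPM in the Scr mice, and 211 and 170 CPM in the miR-99 KD mice. Pygo2, which binds BCL9 proteins, had 44.3, 83.7, 94.1 and 85.4 CPM (0.52 ± 0.39, but 1.19 without Scr 2 and 0.15 without Scr 1), and Bcl9l had 1.64, 2.08, 1.41 and 0.870 CPM (−0.66 ± 0.40), in the order Scr 1, Scr 2, miR-99 KD 1 and miR-99 KD 2.

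Of 13 corepressors and antagonists the median was 0.06. Tle2, a Groucho corepressor that binds TCF/LEF factors, had 7.90 and 9.46 CPM in the Scr libraries against 4.71 and 2.77 CPM in those of miR-99 KD (−1.16 ± 0.38, edgeR adjusted p 0.605). The groups of Tle2, which was named for its small p, did not overlap. Both miR-99 KD libraries lay below both Scr libraries in 25.3% of all genes tested. Aes, a short relative of the TLE proteins and the highest of this list per kilobase, had 92.3 and 209 CPM in the 2 Scr samples, with 157 and 152 CPM in the 2 miR-99 KD samples. Chd8, a chromatin remodeller that binds beta-catenin, had 67.8 and 63.5 CPM in the Scr mice, and 57.1 and 41.0 CPM in the miR-99 KD mice (−0.36 ± 0.24).

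Junction partners bind beta-catenin at cadherins. All 5 tested of 9 had a negative log2 fold change (median −0.61), beside 7946 of all 15591 genes tested. Of the 5, 0 had an unadjusted p under 0.05 in edgeR. Ctnnd2, among the 5, had 31 and 2 counts in the Scr libraries against 3 and 19 in those of miR-99 KD. Ctnna1, the alpha-catenin gene, had 97.5 and 94.3 CPM in the Scr mice, and 80.9 and 54.9 CPM in the miR-99 KD mice (−0.44 ± 0.25). Ctnnd1, the p120-catenin gene, had 17 and 16.7 CPM in the Scr libraries against 11.8 and 5.78 CPM in those of miR-99 KD (−0.87 ± 0.41). Exons of Gm28635 on the same strand cover 61.2% of the Ctnnd1 exon bases, so its counts are uncertain.

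Genes described elsewhere as Wnt targets went both ways. Of 25, 12 were tested, 6 with a positive and 6 with a negative log2 fold change (median 0.02). Myc, the growth regulator, had 580 and 465 CPM in the 2 Scr samples, with 545 and 438 CPM in the 2 miR-99 KD samples. Its log2 fold change of −0.03 ± 0.19 has a 95% interval of −0.53 to 0.48, and its sign turns with the scaling (0.01 with DESeq2 size factors).

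Fosl1 and Jun, both subunits of AP-1, had the smallest p of these targets. Fosl1 had 4.89 and 6.16 CPM in the Scr mice, and 1.97 and 0.941 CPM in the miR-99 KD mice (−1.87 ± 0.47, edgeR adjusted p 0.552, DESeq2 adjusted p 0.0398). Exons of Ccdc85b on the opposite strand overlap 57.2% of the Fosl1 exon bases. Jun had 12.8 and 6.54 CPM in the Scr libraries against 3.33 and 4.66 CPM in those of miR-99 KD (−1.20 ± 0.39, edgeR adjusted p 0.606). Without Scr 1 edgeR called 136 genes lower (0.855% of those tested), Fzd3 (adjusted p 0.0343) and Fosl1 (0.0128) among them. DESeq2 without Scr 1 called neither, with adjusted p of 1 for Fzd3 and 0.297 for Fosl1. The log2 fold change of Fosl1 ran from −2.47 without miR-99 KD 1 to −1.39 without miR-99 KD 2, and that of Jun was −0.65 without Scr 1.

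**Figure D4:**
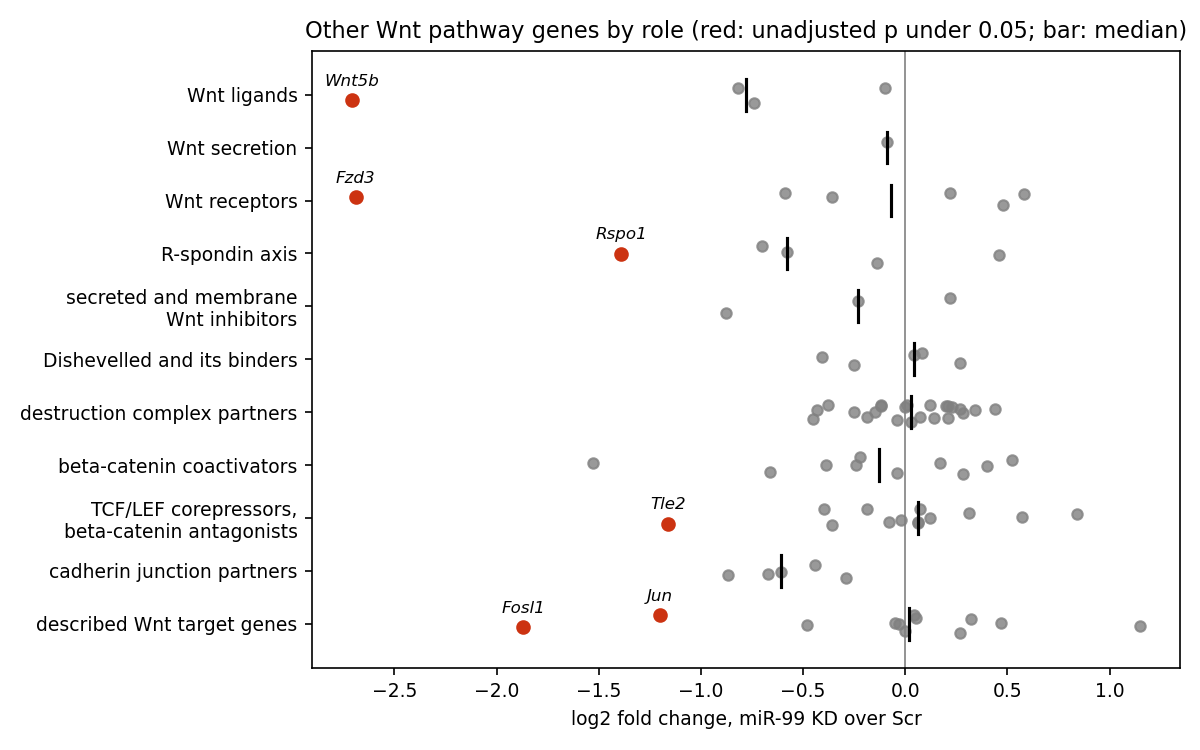
Log2 fold change of miR-99 KD over Scr (x axis) for the 87 tested pathway genes outside the 10, in rows by role; each point is 1 gene, red points have an unadjusted edgeR p under 0.05 and bars are list medians. The 6 red points are all negative, from −2.71 (Wnt5b) to −1.16 (Tle2), and the 23 destruction complex partners lie between −0.45 and 0.44.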

How the data were processed

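RNA of sorted L-GMPs was extracted with Trizol LS and amplified by SMARTer, a template-switching method for little RNA, per the labels' protocols. The authors deposited unscaled counts of reads for each Ensembl gene identifier. STAR, Picard, HTSeq, DESeq2 and the build mm9 are named without versions or roles, per the submitters' processing notes. The sources used here give neither the strand setting nor the annotation release. Rows that name no gene (43.7% to 49.7% of entries) were left out. Symbols (44585 of 45232 identifiers), GRCm38 positions and exon lengths are from GENCODE M21, by identifier; no coordinates were converted.

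The main test was edgeR 4.0.16 (R 4.3.3, glmQLFTest, two-sided) with TMM factors, the default filter (minimum count 10) and Benjamini-Hochberg adjustment over 15591 genes, with 2 residual degrees of freedom. Standard errors and 95% intervals derive from its test statistic. DESeq2 1.42.0 and limma-voom (limma 3.58.1) were alternatives. All were tested on simulated data. Nothing says whether the mice are independent transplants, so p-values measure the spread between these samples. Poisson intervals and floors (3 counts) cover counting error only, while the intervals of fold changes include the spread between libraries.

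The genes and lists were chosen with earlier results of these data known. Named were the 10 genes and, of each list, the gene highest per kilobase and the 2 with the smallest p. Porcn, Wnt9b, Lgr6, Ctnnd2 and marker genes were added after their values were seen.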

Additional observations from a re-analysis of the deposited data

How the results depend on the processing

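With DESeq2, 261 genes and 1 of the 10 Wnt genes (Tcf7l2) were called, and 1 of 87 other pathway genes was higher at an unadjusted p under 0.05 (2.84% of all genes). Over all genes, upper-quartile factors gave 23 calls and no filter on low counts 9; neither called a Wnt gene of the 10. Leaving out 1 library at a time gave 0 to 294 calls over all genes (294 without Scr 1) and 0 among the 10. By an unadjusted p of under 0.05, 0 to 14 other pathway genes were higher and 2 to 9 lower. The 14 were without Scr 2, of 99 tested (14.1%), where 7.02% of all genes tested were higher. Without miR-99 KD 2, 0 of 100 were higher and 2 lower, beside 1.42% and 2.44% of all genes. The 9 lower, without Scr 2, were 9.09% beside 6.02%. Where 1 library is left in a group, it is assumed to vary like the other group.

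Across these exclusions the log2 fold change changed sign for Ctnnb1 (−0.09 to 1.18), Apc (−0.28 to 1.14), Gsk3b (−0.30 to 1.02) and Lrp6 (−1.21 to 0.48). So it did for Aes (−0.38 to 0.92), Dvl2 (−0.26 to 0.42), Fzd7 (−0.66 to 1.43), Kremen1 (−0.91 to 1.25), Myc (−0.15 to 0.17), Nkd1 (−0.41 to 0.07), Nkd2 (−1.28 to 0.96), Notum (−1.51 to 0.22), Rnf43 (−0.43 to 0.18) and Wls (−0.23 to 0.11). Myc was also positive with DESeq2 size factors (0.01), in DESeq2 (0.01) and with no filter (0.03). The causes were not tested. Of 35 genes named with a fold change, 14 moved by over 1.5 times in fold when a library was left out, 5 of them without a change of sign: Tcf7 (0.07 to 1.16), Pygo2 (0.15 to 1.19), Fzd3 (−3.51 to −2.12), Fosl1 (−2.47 to −1.39) and Rspo1 (−1.98 to −0.92). Tcf7l2 stayed between −2.07 and −1.56.

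The Tcf7l2 share was 59.4% to 71.0% in Scr and 35.3% to 37.8% in miR-99 KD when a library was left out. It was 77.0% and 51.7% with transcript length and 78.4% and 53.8% with coding length. The shorter TCF core was in 2 windows.

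The labels number the libraries 1 and 2 in each group and give no reason to pair them. With the replicate number as a block, 0 genes were called and 3 of 87 other pathway genes (3.45%) were lower at an unadjusted p under 0.05, beside 2.76% of all genes tested. The deviations of libraries with the same number correlated at −0.428 across genes, and a crossed block, chosen after seeing the data, gave 28 calls and 0 among the 10. DESeq2 without Scr 1, also chosen after seeing the data, gave 139 calls and 0 among the 10.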
